A study of Oncorhynchus mykiss with 6 samples.

Results

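The matrix metalloproteinases (MMPs) and the tissue inhibitors of metalloproteinases (TIMPs) were examined in dorsal skin of rainbow trout (Oncorhynchus mykiss). A locus was a member when its product name contained matrix metalloproteinase, collagenase, stromelysin, gelatinase or metalloproteinase inhibitor, or when its symbol was MMP or TIMP with a number. These names selected 56 of the 41818 loci in the deposited table, of which 43 were enzymes, 12 were inhibitors and 1 was a lipocalin whose product name contains the word gelatinase. RNA was sequenced in 6 libraries at an age of 45 days, 3 from a yellow mutant and 3 from wild-type fish, set against each other to find the messenger RNAs that differ with the colour phenotype. The sources used here do not give strain, sex, rearing or the mutated gene. Whether each library stands for another fish is not stated either. The p-values thus cover only the spread among these libraries, and it may be technical. Total counts ranged from 15059101 to 19031878 per library.

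MMPs are zinc enzymes that cut the proteins of the extracellular matrix and many cell surface and signalling proteins. Most are made as inactive precursors and become active when an inhibitory propeptide is removed, by other proteases outside the cell or by furin-like convertases inside it. TIMPs bind the active site of MMPs and block it, and TIMP2 also helps the membrane enzyme MMP14 to activate MMP2. In skin the family is known for collagen turnover, wound repair and scale or bone remodelling, and salmonid fish often carry several copies of each gene. Each copy has its own locus and its own counts here.

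Levels of a locus across libraries are CPM, that is read counts relative to the library total after TMM scaling. Means carry the SD over the 3 libraries of each colour. Which of several loci is the more abundant is said by the deposited FPKM, which are per length. Changes are given as log2FC, the base-2 logarithm of the fold of yellow mutant skin over wild-type skin, with the standard error (SE). Adjusted p-values come from edgeR's quasi-likelihood test over all 30691 tested loci. The skin label was checked against marker genes. Dermal fibroblast markers summed to between 54414 and 59931 CPM in yellow mutant skin and between 67809 and 76982 CPM in wild-type skin. Epidermal markers stood between 33303 and 37016 CPM in yellow mutant skin and between 83060 and 87437 CPM in wild-type skin. At an adjusted p under 0.05, 33 of their 45 tested loci were lower and 2 higher, beside 23.1% and 21.7% of all tested loci. Beside the same shares, 8 of the 24 tested fibroblast loci were lower and 2 higher. Scaled by library totals alone, 1 fibroblast locus was lower and 4 were higher. With that scaling, 4544 of all 30691 tested loci were lower and 10805 higher. Skeletal muscle markers were also present, at 15790 to 23786 CPM in yellow mutant skin and 21773 to 26746 CPM in wild-type skin. In such bulk skin, fewer cells of a type and less RNA per cell cannot be told apart, and the part of these cell type markers in the results on MMPs and TIMPs was not tested.

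Of the 56 members, 43 passed the filter on low counts. Of these, 12 rose and 4 fell in yellow mutant skin at an adjusted p under 0.05. That is 37.2% of the tested members, against 44.8% of all tested loci (21.7% higher and 23.1% lower). Of these members, 8 also differed 2-fold or more (log2FC beyond 1 or -1), as 11.5% of all tested loci did. They were 5 that rose, beside 4.81% of all tested loci, and 3 that fell, beside 6.64%. The median log2 fold change of the tested members was 0.14, beside -0.0029 over all tested loci. Scaling by library totals alone moved the median of all tested loci to 0.20 and that of the members to 0.34, and then 25 members were called higher and 4 lower. Unless stated otherwise, values refer to TMM-scaled libraries. Yellow mutant and wild-type levels had no overlap for 19 of the 43 tested members, with the yellow mutant above in 14 and below in 5, whereas 54.3% of all tested loci did not overlap. The enzymes and the inhibitors each held loci that rose and loci that fell. Under a single symbol, both directions were called at the mmp13 and the TIMP2 loci. The mmp13 locus that fell has the RefSeq name mmp30, and the one that rose has the RefSeq name mmp13b.

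**Figure D1:**
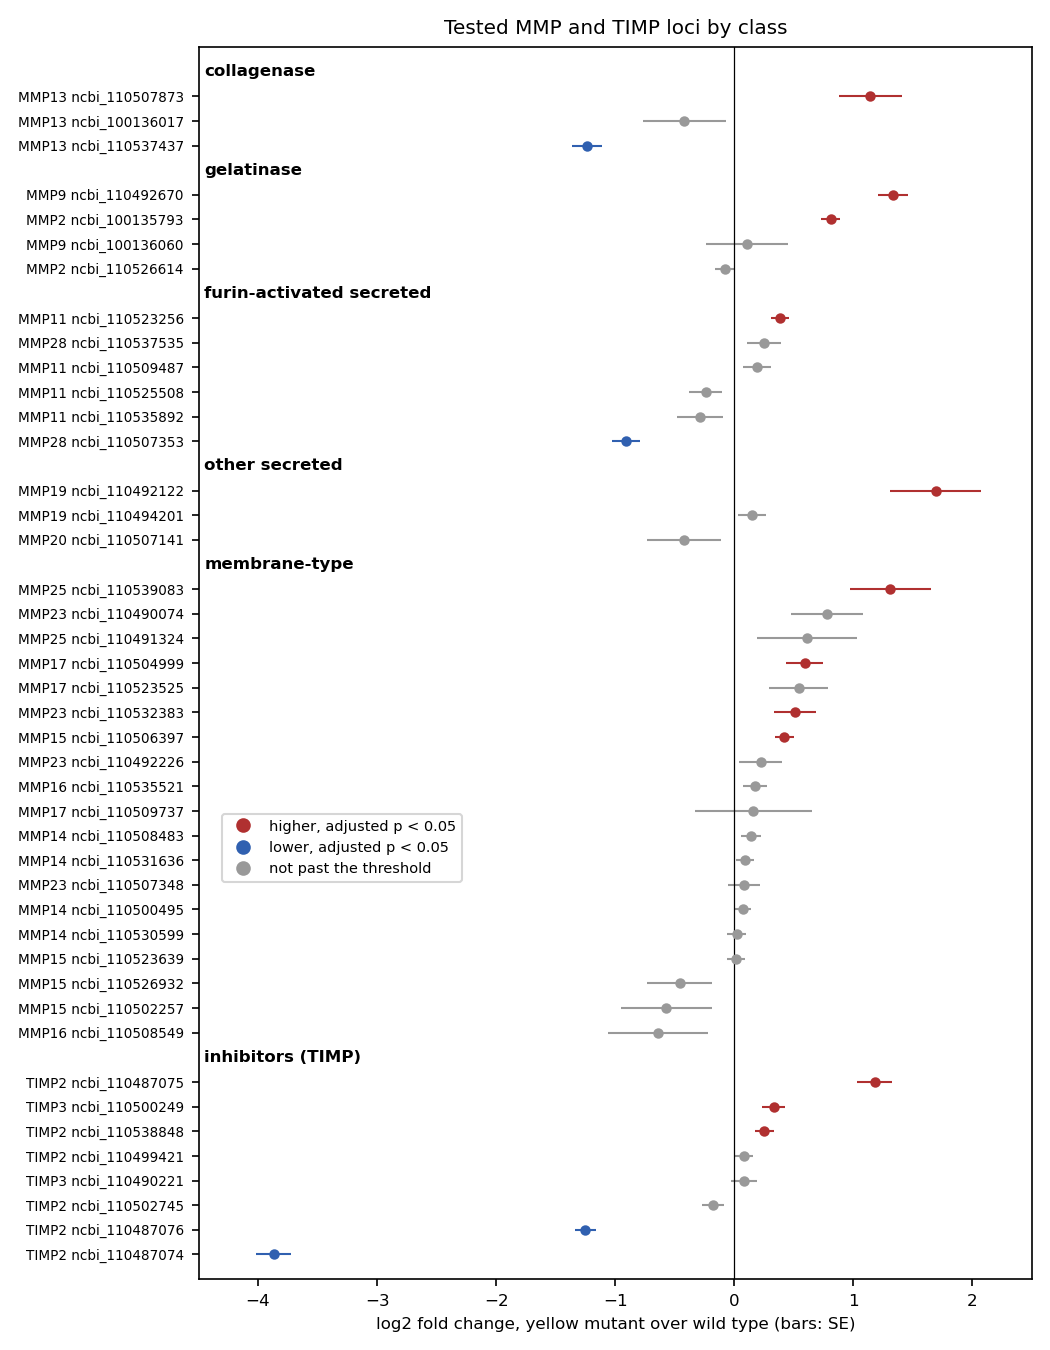
Log2 fold change of yellow mutant over wild type for the 43 tested MMP and TIMP loci, grouped by class and ordered by size within a class, with bars for the SE. Red points rose and blue points fell at an adjusted p under 0.05, grey points did not pass. TIMP2 ncbi_110487074 lies far to the left of all others at -3.87, and the 4 MMP14 loci lie close to 0.

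Gelatinases cut denatured collagen and the type IV collagen of basement membranes. MMP9, the gelatinase known in mammals from neutrophils, macrophages and osteoclasts, rose at its most abundant locus. This locus (ncbi_110492670) stood at 28.9, 38.4 and 34.7 CPM in yellow mutant replicates 1 to 3, against 11.5, 15.7 and 13.5 CPM in wild-type replicates 1 to 3. All yellow mutant libraries lay above all wild-type libraries, and the log2 fold change was 1.33 (SE 0.125, adjusted p = 2.28e-06). The locus with the RefSeq name mmp9 (ncbi_100136060) was lower per length, with 1.14 ± 0.529 FPKM in yellow mutant skin and 0.943 ± 0.307 FPKM in wild-type skin, beside 13.1 ± 1.93 FPKM in yellow mutant skin and 4.55 ± 0.664 FPKM in wild-type skin at ncbi_110492670. On the CPM scale it stood at 1.27, 3.18 and 1.89 CPM in yellow mutant skin and 1.37, 2.72 and 1.94 CPM in wild-type skin. These ranges overlapped, and its log2 fold change of 0.11 (SE 0.344, adjusted p = 0.826) turned to -0.31 without yellow mutant replicate 2. A pair of further MMP9 loci was barely counted and not tested, with 9 counts in yellow mutant skin and 17 in wild-type skin at ncbi_110532796, and 3 counts in yellow mutant skin and 4 in wild-type skin at MSTRG.14691.

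MMP2, the gelatinase of fibroblasts, was the most abundant enzyme per length. Its more abundant locus (ncbi_110526614) had 130 ± 6.70 FPKM in yellow mutant skin and 120 ± 5.30 FPKM in wild-type skin, the highest mean of all 43 enzyme loci. On the CPM scale it stood at 398, 354 and 374 in yellow mutant skin and 410, 393 and 390 in wild-type skin, which overlap (log2FC -0.08, SE 0.0809, adjusted p = 0.427). Its sign depended on the scaling, with 0.11 for library totals alone. The other MMP2 locus (ncbi_100135793) rose. It had 269, 245 and 254 CPM in yellow mutant skin, against 154, 143 and 142 CPM in wild-type skin, with no overlap (log2FC 0.81, SE 0.0788, adjusted p = 3.09e-06). Over both loci, MMP2 counts summed to 631 ± 34.2 CPM in yellow mutant skin and 544 ± 17.5 CPM in wild-type skin.

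Markers of cells in which mammalian MMP9 is made were measured beside it, as lists of symbols. Neutrophil markers summed to between 79.8 and 88.3 CPM in yellow mutant skin and between 126 and 128 CPM in wild-type skin (1 of 12 tested loci higher, 2 lower). A large part of that sum came from a locus with the symbol MPO and the product name eosinophil peroxidase (ncbi_110509901), at 39.8 ± 2.30 CPM in yellow mutant skin and 81.8 ± 2.16 CPM in wild-type skin. Macrophage markers summed to between 90.4 and 104.3 CPM in yellow mutant skin and between 77.9 and 87.0 CPM in wild-type skin (1 of 5 tested loci higher, 1 lower). Loci of MFAP4 (ncbi_110487765) and Havcr1 (ncbi_110537804) on that list had no count. Osteoclast markers summed to between 316 and 335 CPM in yellow mutant skin and between 317 and 334 CPM in wild-type skin. Of their 10 tested loci, however, 3 rose and 5 fell. Over all tested loci, 21.7% were called higher and 23.1% lower. The part of these cells in the MMP9 level was not tested.

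Collagenases make the first cut in intact fibrillar collagen. All 4 collagenase loci carried the symbol mmp13. Of these, 1 rose, 1 fell, 1 did not pass and 1 was not tested (21.7% of all tested loci were higher, 23.1% lower). The most abundant (ncbi_110537437, product collagenase 3-like, RefSeq name mmp30) fell. It had 55.6, 63.6 and 54.0 CPM in yellow mutant skin, against 115, 125 and 169 CPM in wild-type skin, with no overlap (log2FC -1.24, SE 0.126, adjusted p = 4.56e-06). The locus with the RefSeq name mmp13b (ncbi_110507873) rose. It had 6.47, 4.31 and 5.99 CPM in yellow mutant skin, against 2.09, 3.86 and 1.76 CPM in wild-type skin (log2FC 1.14, SE 0.264, adjusted p = 0.00337). Its groups came close, since the lowest yellow mutant library was only a little above the highest wild-type library. This value became 1.53 without wild-type replicate 2 and 0.93 without wild-type replicate 3.

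The remaining mmp13 loci did not pass or were not tested. The collagenase 3 precursor locus (ncbi_100136017) stood at 3.01, 2.89 and 2.87 CPM in yellow mutant skin and at 1.43, 5.51 and 4.90 CPM in wild-type skin (log2FC -0.42, SE 0.349, adjusted p = 0.353). Wild-type replicate 1 was far below the other wild-type libraries, and without it the log2 fold change was -0.83 with an adjusted p of 0.00461. The locus ncbi_100135803, next to the abundant ncbi_110537437 in the RefSeq gene order, had only 9 counts in yellow mutant skin and 6 in wild-type skin. Summed over the 4 loci, MMP13 counts came to 66.4 ± 4.07 CPM in yellow mutant skin and 143 ± 29.5 CPM in wild-type skin. Most of these counts lay at ncbi_110537437 (RefSeq name mmp30).

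MMP11 and MMP28 belong to the enzymes that furin activates inside the cell. Of their 6 loci, 1 rose, 1 fell and 4 did not pass, beside 21.7% of all tested loci called higher and 23.1% lower. MMP11, also called stromelysin-3 and known from connective tissue under remodelling, rose at its most abundant locus (ncbi_110523256, RefSeq name mmp11b). It had 96.5, 102 and 104 CPM in yellow mutant skin, against 79.5, 72.5 and 80.1 CPM in wild-type skin (log2FC 0.38, SE 0.0756, adjusted p = 0.00112). The other 3 MMP11 loci did not pass, with log2 fold changes from -0.29 to 0.19. MMP28, or epilysin, known in mammals from keratinocytes, fell at ncbi_110507353, which is named although the naming rule did not select it. That locus had 10.9, 9.10 and 9.42 CPM in yellow mutant skin, against 17.9, 16.3 and 20.8 CPM in wild-type skin (log2FC -0.91, SE 0.116, adjusted p = 3.29e-05). The other MMP28 locus (ncbi_110537535) stood at 8.48 ± 0.310 CPM in yellow mutant skin and 7.19 ± 1.29 CPM in wild-type skin (log2FC 0.25, SE 0.141, adjusted p = 0.175). Epidermal markers were lower in the same libraries, as given above, and their part in the level of MMP28 was not tested.

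Membrane-type enzymes act at the cell surface, and this class held 22 loci, of which 19 were tested. Of these, 4 rose, 0 fell and 15 did not pass, with a median log2 fold change of 0.16 (12 higher and 0 lower with library totals alone). The 21.1% that rose is near the 21.7% of all tested loci called higher, and 23.1% of all tested loci were called lower. MMP14, the membrane collagenase that activates MMP2, is the most abundant of the class per length. Its leading locus (ncbi_110508483, RefSeq name mmp14b) had 65.3 ± 6.47 FPKM in yellow mutant skin and 51.7 ± 2.59 FPKM in wild-type skin. On the CPM scale it stood at 197, 235 and 228 in yellow mutant skin and 206, 191 and 203 in wild-type skin, which overlap (log2FC 0.14, SE 0.0861, adjusted p = 0.214). It passed with library totals alone, at a log2 fold change of 0.34 and an adjusted p of 0.00579. All 4 MMP14 loci had small log2 fold changes, from 0.02 to 0.14 with SEs between 0.0700 and 0.0861, and none of the 4 (0) passed.

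The membrane-type loci that rose were of 4 different numbers. MMP25 (ncbi_110539083, RefSeq name mmp25a), which is anchored by a lipid and known from leukocytes in humans, had 1.73, 1.42 and 1.13 CPM in yellow mutant skin. In wild-type skin it had 0.537, 0.501 and 0.666 CPM, so the groups did not overlap (log2FC 1.31, SE 0.341, adjusted p = 0.00699). This rests on 81 counts in yellow mutant skin and 27 in wild-type skin. The other MMP25 locus (ncbi_110491324), with 43 counts in yellow mutant skin and 23 in wild-type skin, did not pass (log2FC 0.61, SE 0.420, adjusted p = 0.256). The 3 further increases were below a log2 fold change of 1 and are named although the naming rule did not select them. MMP17 (ncbi_110504999, also lipid-anchored) stood at 7.83 ± 1.18 CPM in yellow mutant skin and 5.18 ± 0.650 CPM in wild-type skin (log2FC 0.59, SE 0.158, adjusted p = 0.00864). The tested MMP17 loci ncbi_110523525 and ncbi_110509737 did not pass (log2FC 0.54 and 0.16, adjusted p = 0.0918 and 0.818). MMP15 (ncbi_110506397), a transmembrane relative of MMP14, stood at 40.4 ± 2.17 CPM in yellow mutant skin and 30.3 ± 1.89 CPM in wild-type skin (log2FC 0.42, SE 0.0812, adjusted p = 0.00099). The other 3 MMP15 loci did not pass, with log2 fold changes from -0.57 to 0.01, the latter at the more abundant ncbi_110523639. Summed MMP15 had a log2 fold change of 0.13 (SE 0.0748). MMP23 (ncbi_110532383) stood at 4.22 ± 0.210 CPM in yellow mutant skin and 2.94 ± 0.267 CPM in wild-type skin (log2FC 0.51, SE 0.180, adjusted p = 0.0333). The MMP23 call was lost in DESeq2 (adjusted p = 0.086) and without any 1 of 5 libraries (adjusted p from 0.0548 to 0.1). The other 3 MMP23 loci did not pass, with log2 fold changes from 0.08, at the most abundant ncbi_110507348, to 0.78. Neither tested MMP16 locus passed, with log2 fold changes of 0.17 at ncbi_110535521 and -0.64 at ncbi_110508549 (adjusted p = 0.191 and 0.242).

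Among the other secreted enzymes, MMP19 ncbi_110492122 had the largest log2 fold change above 0 of all tested members. MMP19 cuts basement membrane proteins and occurs in mammalian epidermis and blood vessels. The locus stood at 3.70, 11.6 and 12.3 CPM in yellow mutant skin, against 2.09, 4.29 and 2.42 CPM in wild-type skin (log2FC 1.69, SE 0.379, adjusted p = 0.0027). The groups overlapped, because yellow mutant replicate 1 lay below wild-type replicate 2. The log2 fold change ranged from 1.43 to 2.06 when each library was left out in turn, past the threshold each time. The more abundant MMP19 locus (ncbi_110494201, RefSeq name mmp19) stood at 23.7 ± 0.944 CPM in yellow mutant skin and 21.2 ± 4.06 CPM in wild-type skin (log2FC 0.15, SE 0.119, adjusted p = 0.316). MMP20, the enamel protease of teeth, was low at ncbi_110507141 (60 counts in yellow mutant skin, 66 in wild-type skin). That locus was tested and did not pass (log2FC -0.42, SE 0.311, adjusted p = 0.298). No count fell on the other MMP20 locus (ncbi_110503374) in any of the 6 libraries, which allows up to 0.0288 CPM over all libraries (3 counts, counting error only).

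**Figure D2:**
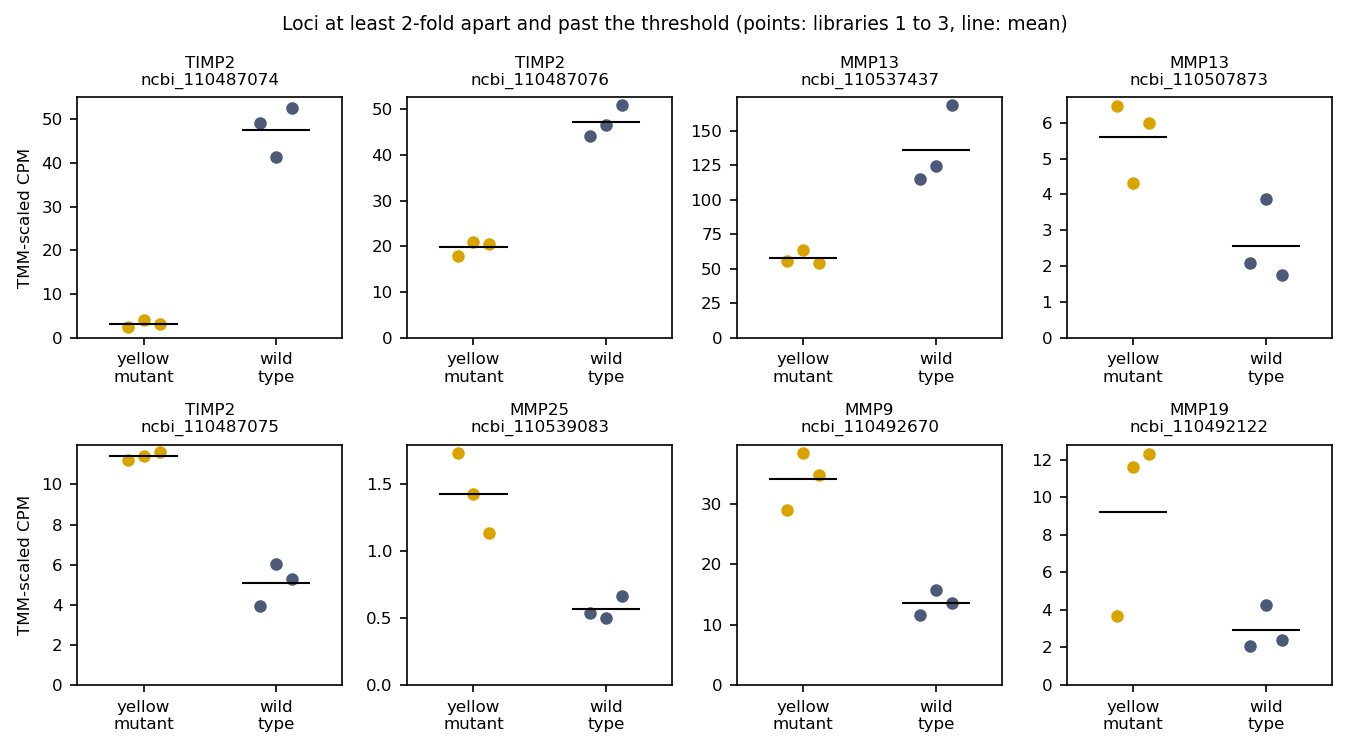
TMM-scaled CPM in each library for the 8 loci past the threshold with a log2FC beyond 1 or -1. Each panel shows yellow mutant replicates 1 to 3 on the left, wild-type replicates 1 to 3 on the right and a line at each mean, on a linear axis from 0. The groups overlap only for MMP19 ncbi_110492122.

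The inhibitors held the largest change of the family, and it was a decrease. Of the 12 inhibitor loci 8 were tested, of which 3 rose, 2 fell and 3 did not pass, with a median log2 fold change of 0.08. Over all tested loci, 21.7% were called higher and 23.1% lower. TIMP2 alone accounted for 9 loci. TIMP2 ncbi_110487074 had 2.49, 4.11 and 3.07 CPM in yellow mutant skin, against 49.1, 41.3 and 52.5 CPM in wild-type skin. All yellow mutant libraries lay far below all wild-type libraries, and the locus was 14.6-fold lower (log2FC -3.87, SE 0.147, adjusted p = 1.53e-09). In raw reads this was 187 counts in yellow mutant skin and 2267 in wild-type skin. TIMP2 ncbi_110487076 also fell, with 18, 20.9 and 20.6 CPM in yellow mutant skin, against 44.1, 46.6 and 51.0 CPM in wild-type skin (log2FC -1.25, SE 0.0893, adjusted p = 2.17e-07).

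Other TIMP2 loci rose or did not pass. TIMP2 ncbi_110487075 had 11.2, 11.4 and 11.6 CPM in yellow mutant skin, against 3.94, 6.01 and 5.27 CPM in wild-type skin (log2FC 1.18, SE 0.146, adjusted p = 2.60e-05). The groups were well apart, in the direction opposite to that of ncbi_110487074. TIMP2 ncbi_110538848 had 104, 94.9 and 112 CPM in yellow mutant skin, against 88.6, 85.3 and 87.4 CPM in wild-type skin (log2FC 0.25, SE 0.0791, adjusted p = 0.0208). Per length it was the most abundant inhibitor locus in yellow mutant skin, at 45.9 ± 3.79 FPKM, whereas in wild-type skin ncbi_110487076 was, at 62.3 ± 3.64 FPKM. The small increase of ncbi_110538848 was no longer past the threshold without wild-type replicate 2, wild-type replicate 3 or yellow mutant replicate 3 (adjusted p = 0.0749, 0.0565 and 0.0691). TIMP2 ncbi_110499421 stood at 74.2 ± 4.73 CPM in yellow mutant skin and 70.2 ± 1.87 CPM in wild-type skin (log2FC 0.08, SE 0.0762, adjusted p = 0.431). The locus with the RefSeq name timp2a (ncbi_110502745) stood at 21.1 ± 0.949 CPM in yellow mutant skin and 23.9 ± 2.26 CPM in wild-type skin (log2FC -0.18, SE 0.0911, adjusted p = 0.127). Its sign turned to 0.02 with library totals alone.

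In the RefSeq gene order, ncbi_110487074 belongs to a run of TIMP2 copies whose other members were nearly silent. Its direct neighbour ncbi_110487073 had 17 counts in yellow mutant skin and 24 in wild-type skin. On the other side, with 1 gene between successive copies, lie ncbi_110487072 (0 counts in yellow mutant skin, 2 in wild-type skin) and ncbi_110487071 (8 in yellow mutant skin, 1 in wild-type skin). The second TIMP2 locus that fell, ncbi_110487076, lies elsewhere, with 4 genes between it and ncbi_110538848, which rose slightly. The locus ncbi_110487075, which rose, was not found in that gene table.

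TIMP3, the inhibitor that stays bound to the matrix, was measured at both of its loci. TIMP3 ncbi_110500249 had 22.5, 24.8 and 24 CPM in yellow mutant skin, against 16.5, 21 and 19.4 CPM in wild-type skin (log2FC 0.33, SE 0.0984, adjusted p = 0.0152). Without wild-type replicate 1, the lowest library, that call was lost (adjusted p = 0.065). TIMP3 ncbi_110490221 stood at 36.4 ± 1.97 CPM in yellow mutant skin and 34.6 ± 5.78 CPM in wild-type skin (log2FC 0.08, SE 0.107, adjusted p = 0.594). The single TIMP4 locus (ncbi_110494853) had 8 counts in yellow mutant skin and 3 in wild-type skin and was not tested.

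The ratio of the counts of 2 loci within a library does not depend on how libraries are scaled. It was formed for 6 pairs of loci with the same number, chosen after their values were seen and given as a description. The MMP2 ratio (ncbi_100135793 over ncbi_110526614) was 0.677, 0.692 and 0.679 in yellow mutant skin and 0.374, 0.363 and 0.364 in wild-type skin. This pair varied least between libraries of a phenotype. The TIMP2 ratio of ncbi_110487075 over ncbi_110487074 was 4.51, 2.77 and 3.77 in yellow mutant skin and 0.0802, 0.146 and 0.1 in wild-type skin. Per length, ncbi_110487075 had 8.6 FPKM and ncbi_110487074 had 3.91 FPKM on average in yellow mutant skin, while in wild-type skin ncbi_110487075 had 3.33 FPKM and ncbi_110487074 had 50.2 FPKM. The TIMP2 ratio of ncbi_110538848 over ncbi_110487076 averaged 5.25 ± 0.637 in yellow mutant skin and 1.85 ± 0.149 in wild-type skin. The MMP13 ratio of ncbi_110507873 (RefSeq name mmp13b) over ncbi_110537437 (RefSeq name mmp30) averaged 0.0984 ± 0.0267 in yellow mutant skin and 0.0199 ± 0.0104 in wild-type skin. The MMP28 ratio of ncbi_110507353 over ncbi_110537535 averaged 1.16 ± 0.127 in yellow mutant skin and 2.64 ± 0.772 in wild-type skin. The sources used here do not say how reads shared between near-identical copies were treated, and reads given to another copy and a true difference in RNA cannot be told apart.

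**Figure D3:**
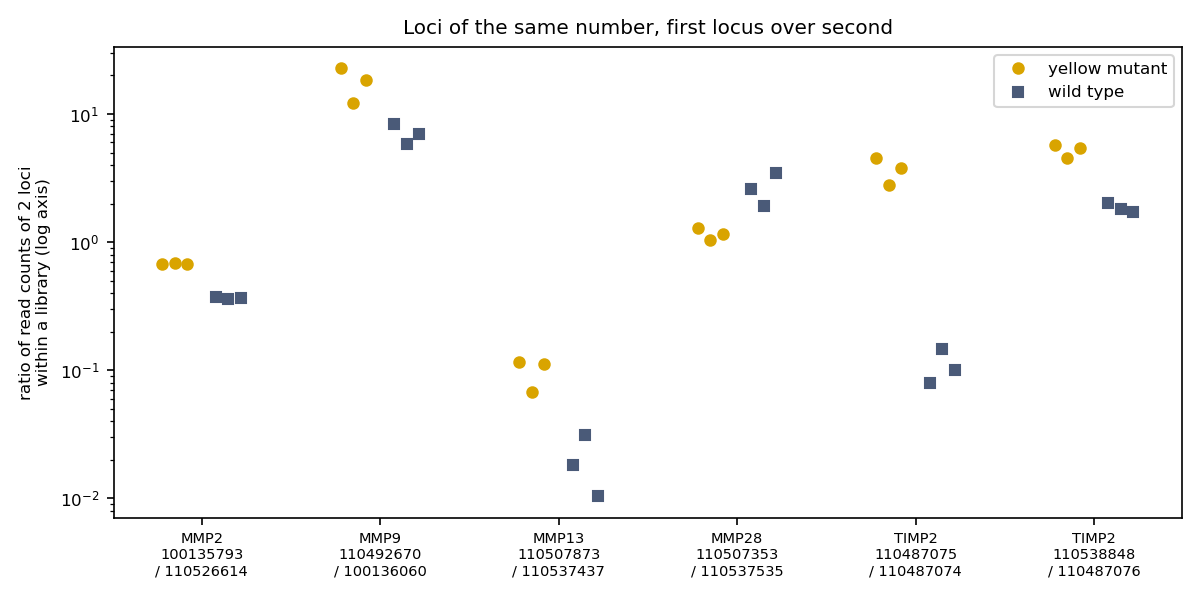
Ratio of read counts of 2 loci with the same number within each library, on a log axis, with yellow mutant libraries as circles to the left of wild-type libraries as squares. The groups do not overlap in any of the 6 pairs, and the TIMP2 pair ncbi_110487075 over ncbi_110487074 has the widest gap, from 2.77 upwards in yellow mutant skin and up to 0.146 in wild-type skin. The loci of the MMP13 pair have the RefSeq names mmp13b and mmp30.

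Summed over loci with the same number, which sets aside how reads were divided among the loci of 1 number, the directions of the main copies remained for MMP9 and MMP13. Summed MMP9 stood at 36.3 ± 5.74 CPM in yellow mutant skin and 16 ± 2.99 CPM in wild-type skin (log2FC 1.19, SE 0.136). Summed MMP13 had a log2 fold change of -1.10 (SE 0.121). Most of that sum came from ncbi_110537437, whose RefSeq name is mmp30. That locus alone had 57.7 ± 5.12 CPM in yellow mutant skin and 136 ± 28.6 CPM in wild-type skin. Sums of MMP11, MMP17, MMP19, MMP23 and MMP25 had log2 fold changes of 0.29, 0.56, 0.44, 0.28 and 1.03, the direction of their called loci. The MMP28 sum, at -0.48, also kept the direction of its called locus. Summed MMP2 had a log2 fold change of 0.22 (SE 0.0826). Summed TIMP2 stood at 234, 222 and 245 CPM in yellow mutant skin and 284, 271 and 290 CPM in wild-type skin, a log2 fold change of -0.27 (SE 0.0785). Among the tested copies, ncbi_110487074, ncbi_110487076 and ncbi_110487075 had larger changes in size than this sum (-3.87, -1.25 and 1.18). The changes of ncbi_110538848, ncbi_110502745 and ncbi_110499421 were smaller (0.25, -0.18 and 0.08). All these sums were fitted with TMM scaling only, and library totals alone moved the median of all tested loci to 0.20. How far sums with changes near that size, such as those of TIMP2 and MMP2, depend on the scaling was not tested.

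Per length, MMP2 and MMP14 made up most of the enzyme RNA in both phenotypes. MMP2 took 42.9 ± 2.53% of the summed FPKM of the 43 enzyme loci in yellow mutant skin and 39.6 ± 1.5% in wild-type skin, and MMP14 took 26.8 ± 1.23% in yellow mutant skin and 26.8 ± 0.466% in wild-type skin. The share of MMP13 was 4.58 ± 0.254% in yellow mutant skin and 10.2 ± 2.01% in wild-type skin. This MMP13 share came mostly from ncbi_110537437 (RefSeq name mmp30). MMP9 held a small share, 2.88 ± 0.449% in yellow mutant skin and 1.58 ± 0.389% in wild-type skin. Among the inhibitors, TIMP2 ncbi_110487074 took 2.65 ± 0.700% of the summed FPKM in yellow mutant skin and 25.1 ± 2.24% in wild-type skin. TIMP2 ncbi_110538848 took 31.1 ± 1.84% in yellow mutant skin and 16.9 ± 0.662% in wild-type skin.

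The summed FPKM of the inhibitors over that of the enzymes was 0.281, 0.283 and 0.299 in yellow mutant skin and 0.469, 0.478 and 0.493 in wild-type skin. This ratio does not depend on the library scaling, but it does depend on the per-length unit. Yellow mutant over wild type, summed FPKM stood at 0.739 for the inhibitors and 1.23 for the enzymes. In CPM, which is not per length, these values were 0.876 for the inhibitors and 1.07 for the enzymes. Without TIMP2 ncbi_110487074 the FPKM ratio was 0.280 ± 0.00992 in yellow mutant skin and 0.359 ± 0.0126 in wild-type skin. Without ncbi_110487076 as well it was 0.221 ± 0.00976 in yellow mutant skin and 0.209 ± 0.00748 in wild-type skin. These loci are the 2 inhibitors that fell, and they were chosen for this after their values were seen, so a smaller difference without them follows from the choice. These are levels of RNA, and protein and enzyme activity were not measured in these libraries.

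**Figure D4:**
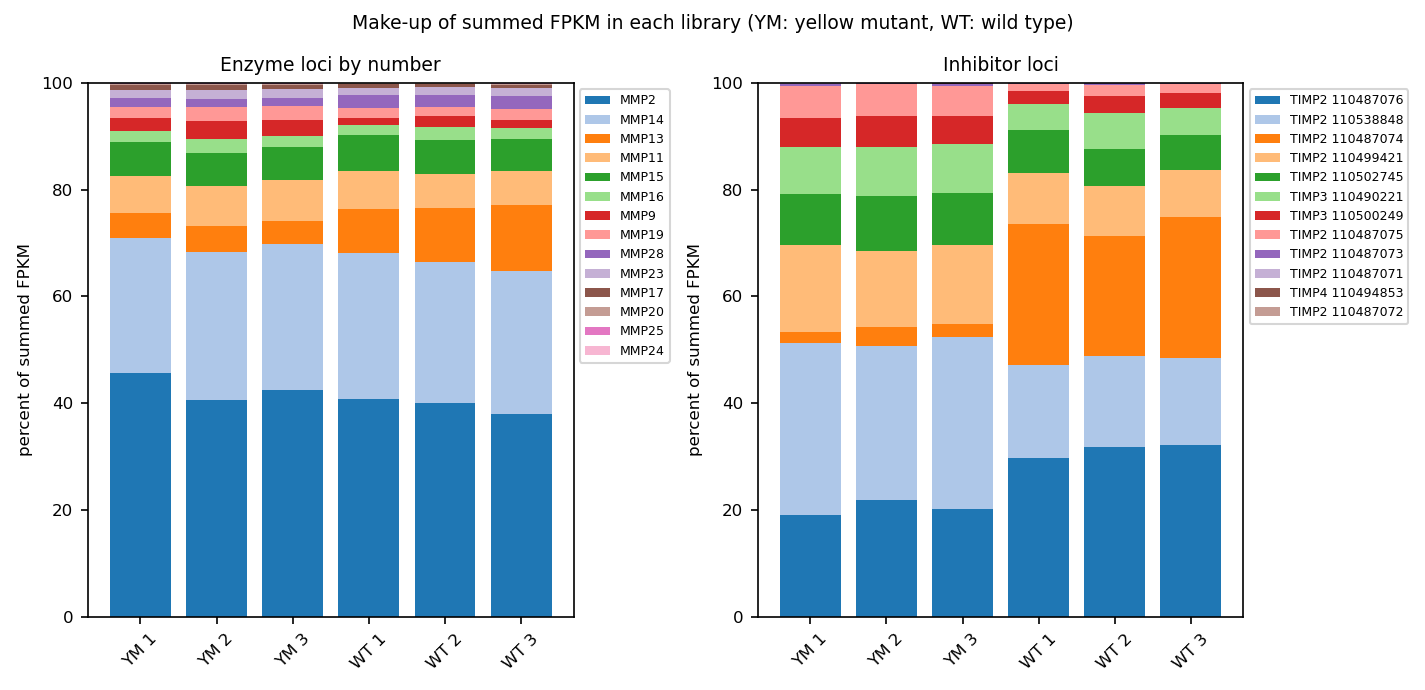
Share of each MMP number in the summed FPKM of the enzyme loci (left) and of each inhibitor locus in the summed FPKM of the inhibitors (right), in percent, for yellow mutant libraries 1 to 3 (YM) and wild-type libraries 1 to 3 (WT). The band of TIMP2 ncbi_110487074 is 2.65% on average in yellow mutant skin and 25.1% in wild-type skin. The band of MMP13, mostly ncbi_110537437 (RefSeq name mmp30), is 4.58% on average in yellow mutant skin and 10.2% in wild-type skin.

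Genes that act with this family were taken as 7 lists. In the list of precursor activators and the plasminogen system, 0 of 23 tested loci rose and 10 fell (median log2 fold change -0.42), with 4 higher and 10 lower with library totals alone. Beside these counts, 21.7% of all tested loci were called higher and 23.1% lower. The convertases are of the protease family that activates membrane-type MMPs. At single loci, Furin (ncbi_110497223), Pcsk5 (ncbi_110522949) and Pcsk7 (ncbi_110503677) fell by 0.94, 0.96 and 0.83 on the log2 scale. That Furin locus was low, at 2.56 ± 0.192 CPM in yellow mutant skin and 4.92 ± 0.181 CPM in wild-type skin. A further furin locus (ncbi_110506586) had 29.2 CPM in yellow mutant replicate 1. Its change is not given here, so the fall at ncbi_110497223 stands for that locus only. Pcsk5 MSTRG.9880 did not pass (log2FC 0.40, SE 0.347, adjusted p = 0.373). Of the inhibitors other than TIMPs, RECK and alpha-2-macroglobulin, 1 of 5 tested loci rose and 0 fell. That locus, A2M ncbi_110493403, had 1.48 ± 0.274 CPM in yellow mutant skin and 0.567 ± 0.129 CPM in wild-type skin (log2FC 1.36, SE 0.339, adjusted p = 0.00539).

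Of the related ADAM and ADAMTS proteases, with the BMP1 and meprin genes, 11 of 67 tested loci were higher and 15 lower (median -0.09). With library totals alone, 22 were higher and 6 lower (median 0.11). For this list and the next lists, 21.7% of all tested loci were called higher and 23.1% lower. Adamts1 (ncbi_110495973), which cuts proteoglycans, had 37.9 ± 2.34 CPM in yellow mutant skin and 113 ± 17 CPM in wild-type skin (log2FC -1.57, SE 0.106, adjusted p = 1.32e-07). Another Adamts1 locus (ncbi_110527585), named although the naming rule did not select it, rose. It had 51.4 ± 0.186 CPM in yellow mutant skin and 37.1 ± 5.07 CPM in wild-type skin (log2FC 0.47, SE 0.0933, adjusted p = 0.00118). ADAM28 (ncbi_110525887) fell by 0.95, while ADAMTS18 (ncbi_110506089) and ADAM19 (ncbi_110504603) rose by 0.91 and 0.88 on the log2 scale. Among collagens and fibronectin, substrates of these enzymes, 5 of 47 tested loci rose and 18 fell (median -0.21). With library totals alone this split turned to 11 higher and 5 lower (median -0.01). The largest increase there was at a locus with the symbol COL4A1 and an alpha-3(IV) product name (ncbi_110530010), at a log2 fold change of 2.05 (SE 0.330). Col4a4 (ncbi_110507301) and Col5a2 (ncbi_110497058) rose by 0.93 and 0.81 on the log2 scale, and Col5a1 (ncbi_110485366) fell by 0.73. In the list of collagen uptake and lysosomal proteases, 6 of 15 tested loci rose and 2 fell (median 0.19). CTSD (ncbi_110538020), a lysosomal aspartic protease gene, had 18.9 ± 1.98 CPM in yellow mutant skin and 8.72 ± 1.12 CPM in wild-type skin (log2FC 1.11, SE 0.120, adjusted p = 7.85e-06). CTSL (ncbi_110523896) and ctsd (ncbi_110486128) rose by 1.11 and 0.46 on the log2 scale, and CTSS (ncbi_110487241) fell by 0.75.

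Transcription factors of the AP-1 and ETS families, which bind MMP promoters in mammals, were mostly lower. Of 37 tested loci 20 fell and 2 rose (median -0.73), beside 23.1% of all tested loci called lower and 21.7% higher. With library totals alone 19 fell and 9 rose. FOS (ncbi_110529275), an AP-1 subunit, had the largest change of the list, at 0.449 ± 0.215 CPM in yellow mutant skin and 12.7 ± 4.6 CPM in wild-type skin (log2FC -4.84, SE 0.354, adjusted p = 2.65e-07). The fos loci ncbi_110529274 and ncbi_110522641, not selected by the naming rule, had higher CPM and smaller falls. The first had 35.9 ± 26.8 CPM in yellow mutant skin and 130.6 ± 51.1 CPM in wild-type skin (log2FC -1.86, SE 0.389). The second had 22.8 ± 16.4 CPM in yellow mutant skin and 58.8 ± 11.8 CPM in wild-type skin (log2FC -1.36, SE 0.336). FOSB, another AP-1 subunit, fell at 2 loci. Its locus ncbi_110503557 had 9.01 ± 7.39 CPM in yellow mutant skin and 137 ± 7.99 CPM in wild-type skin (log2FC -3.92, SE 0.344, adjusted p = 1.27e-06), and ncbi_110507403 fell by 4.16 (SE 0.294). Fosl1 (ncbi_110504980), also a subunit, had 0.608 ± 0.272 CPM in yellow mutant skin and 6.28 ± 3.13 CPM in wild-type skin (log2FC -3.34, SE 0.432, adjusted p = 3.73e-05). Of the cytokines and growth factors known to induce MMPs, 4 of 18 tested loci were higher and 5 lower. The same shares, 21.7% higher and 23.1% lower, stand beside this count. The median of this list was -0.12, but 0.08 with library totals alone. Of the interleukin-1 beta genes, il1b ncbi_100136024 had 1.61 ± 0.763 CPM in yellow mutant skin and 3.13 ± 0.695 CPM in wild-type skin, and fell by 0.95 on the log2 scale (SE 0.314, adjusted p = 0.025). Il1b ncbi_110509557 had 6.36 ± 0.971 CPM in yellow mutant skin and 4.38 ± 1.35 CPM in wild-type skin (log2FC 0.55, SE 0.204, adjusted p = 0.0413). TGFB3 (ncbi_110522636) and HGF (ncbi_110521571), both growth factors, rose by 0.79 and 0.67 on the log2 scale.

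**Figure D5:**
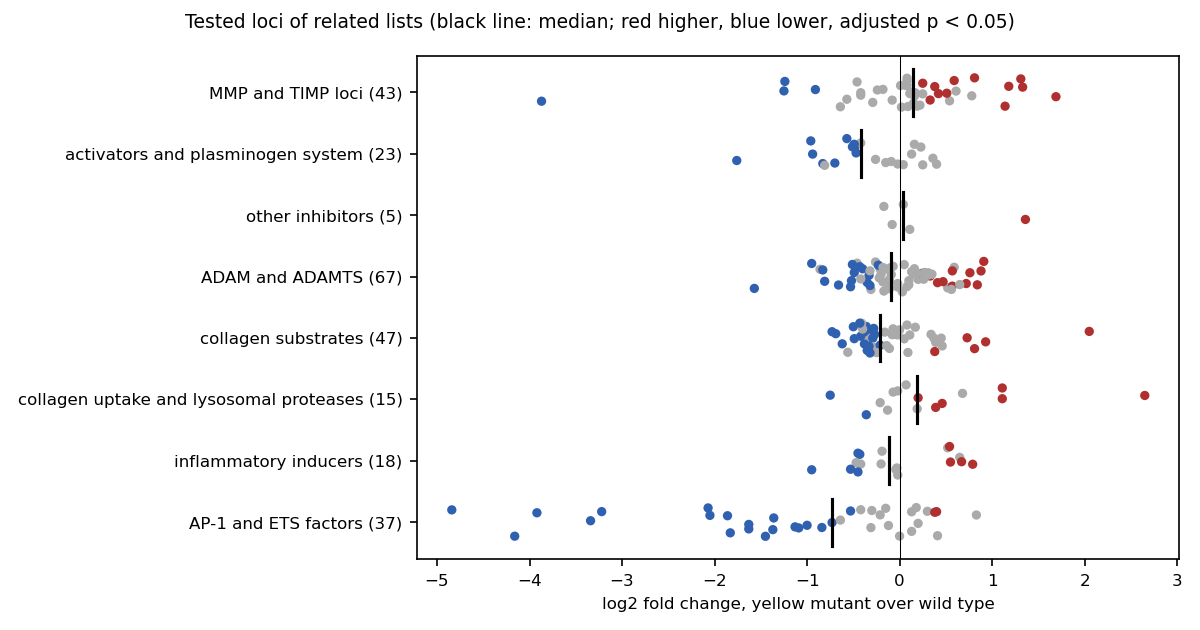
Log2 fold change of yellow mutant over wild type for the 43 tested MMP and TIMP loci and for the tested loci of 7 related lists, with the number of tested loci in brackets and a black line at each median. Red points rose and blue points fell at an adjusted p under 0.05. The AP-1 and ETS factors have the lowest median, at -0.73, and the MMP and TIMP loci stand at 0.14.

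The 13 members that were not tested had between 0 and 41 counts over all 6 libraries. Besides those given above they were an MMP19 locus (ncbi_110528996, 0 counts in yellow mutant skin and 4 in wild-type skin), an MMP24 locus (ncbi_110493842, 4 in yellow mutant skin and 0 in wild-type skin), an MMP16 locus (ncbi_110530511, 9 in yellow mutant skin and 5 in wild-type skin) and an MMP17 locus (ncbi_110489467, 8 in yellow mutant skin and 2 in wild-type skin). The lipocalin locus (ncbi_110523947, symbol Ptgds), which is no protease, had 24 counts in yellow mutant skin and 14 in wild-type skin. The authors' deposited table gives 15 members an FDR below 0.05, which 26.5% of all its loci have. By its sign, 11 of these were higher and 4 lower. All 15 were among the 16 called here, with the same sign. The locus called here only was MMP23 ncbi_110532383, for which the authors' deposited table gives an FDR of 0.126.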

How the data were processed

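Total RNA of flash-frozen dorsal skin was sequenced as Illumina libraries, per the labels' protocols. Bowtie2 2.2.8 and TopHat2 2.1.1 are listed without roles, per the submitters' processing notes. The sources used here give neither counting tool, strand use, genome build nor annotation. Per the file headers, the authors deposited read counts of each locus and FPKM of the same libraries. Further deposited columns give mean FPKM by phenotype, their log2 ratio, a p-value and an FDR; the authors' test is not named in the sources used here.

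Libraries were grouped by the labelled phenotype. Counts were filtered with filterByExpr, scaled with TMM factors and compared with glmQLFit and glmQLFTest, without covariates, in edgeR 4.0.16 (R 4.3.3), with Benjamini-Hochberg adjustment over all tested loci and a threshold of 0.05. The SE is the log2 fold change divided by the square root of F. The calculation was tested on simulated data with 200 changed loci and the same spread setting for all loci, unlike these data. Of the simulated log2 fold changes of size 1, 83% were called, and of those of size 2, 100%. This checks the calculation only, not the calls made here. Libraries of a phenotype differed by more than sampling noise (chi-square per degree of freedom from 3.88 to 23.1), so none was taken as a repeated deposit of another; this does not show that they are separate fish. Alternatives used DESeq2 1.42.0 and limma 3.58.1 on log2(FPKM + 0.5) and log2(FPKM + 0.1).

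Enzymes were classed by the number in the product name, which differs from that in the symbol at 2 loci. The product name of ncbi_100135803 holds no number, so its symbol mmp13 was used. Of the 56 members, 52 were found in the RefSeq gene table of assembly USDA_OmykA_1.1, used for names and gene order only. Members, lists and the naming rule were chosen with earlier results of these data known. The rule names members past the threshold with a log2 fold change beyond 1 or -1, the most abundant locus per class by FPKM, all loci of MMP2, MMP9 and MMP13, and inhibitors at 1 CPM or more. From each related list it takes up to 4 called loci at 1 CPM or more, by size of change. List loci were matched by symbol. A list locus that the rule selects is not reported here.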

Additional observations from a re-analysis of the deposited data

How the results depend on the processing

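The number of members past the threshold was 16, and 29 with library totals alone, 28 with limma on log2(FPKM + 0.5) and 28 with limma on log2(FPKM + 0.1), settings that leave out the TMM factors. It lay between 14 and 16 when each library was left out, and was 16 with DESeq2 size factors, without the filter and for members that both the symbol and the product name select, and 15 with DESeq2. Over all tested loci the calls were 6658 higher and 7079 lower, against 10805 and 4544 with library totals alone. Over the related lists they were 29 and 70, against 61 and 43. Deviations of same-numbered libraries correlated by 0.08, 0.0137 and 0.0557, so the numbers were not taken as pairs, although each library correlated best with its own number. With the replicate number as a block, 16 members and 13868 loci in all passed, and 102 list loci in place of 99. For 24 named loci, 336 values were recomputed: 297 kept direction and side of the threshold, 12 lost the call with the same direction, 13 gained it and 14 changed sign. Sign changes were at loci that did not pass, except where a summed number replaced a single copy (-0.27 in place of TIMP2 ncbi_110487075 and ncbi_110538848, -1.10 in place of mmp13 ncbi_110507873). Summing also gave -0.27 for TIMP2 ncbi_110499421, which had not passed. MMP2 ncbi_110526614 turned to 0.11 with library totals alone and in both limma fits, and to 0.22 when summed. Timp2 ncbi_110502745 turned to 0.02 in the same 3 settings. When each library was left out, MMP9 ncbi_100136060 ranged from -0.31 to 0.37 and TIMP3 ncbi_110490221 from -0.04 to 0.20. The yellow mutant minus wild type difference in the inhibitor to enzyme FPKM ratio was -0.192. It was 0.012 without both lower TIMP2 loci, an alternative chosen after seeing the data. The causes were not tested. Loci with few counts, such as MMP25, have wide errors.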
